A study of Mus musculus with 12 samples.

Results

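The transcripts of 9 mitochondrial enzymes and enzyme subunits of the tricarboxylic acid (TCA) cycle were examined in mouse myotubes exposed to the mitochondrial uncoupler BAM15. They were chosen by name and are Cs, Idh3a, Idh3b, Idh3g, Ogdh, Dlst, Sucla2, Fh1 and Mdh2. All 9 were found among the 15113 genes of the count table, and all 9 were among the 12730 genes with enough counts to test. C2C12 cells are mouse myoblasts that stop dividing and fuse to form myotubes once serum is withdrawn. In both conditions the cells were grown to confluence in high-glucose medium with fetal bovine serum and differentiated in horse serum, and the sample records call them fully differentiated myotubes. They then received BAM15 at 20 μM, dissolved in DMSO, or the vehicle, over 16 h, and each condition is represented by 6 libraries. BAM15 is a small molecule that carries protons across the inner mitochondrial membrane, so that substrate oxidation runs without making ATP. All libraries come from 1 cell line, and the records do not say whether they come from separate cultures, so the p-values below measure only the spread between these libraries.

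Libraries were made with QuantSeq, in which cDNA is primed at the poly(A) tail and the sequenced fragments come from close to the 3′ end, so that counts do not scale with transcript length. Between 13983725 and 18866728 reads per library were counted on genes. Normalized counts below are counts divided by the library size after TMM scaling and multiplied by the mean of these sizes, and changes are log2 fold changes of BAM15 over vehicle with their standard error (SE), tested with edgeR's quasi-likelihood test and called at a Benjamini-Hochberg adjusted p below 0.01. Over all tested genes the median change was 0.02. The libraries are numbered 1 to 6 in each condition, and the records do not say what a number stands for. BAM15 libraries 4 to 6 stood apart from BAM15 libraries 1 to 3, with 24.2% of tested genes called between them, whereas 0 genes were called between vehicle libraries 4 to 6 and 1 to 3 by edgeR's test, 5.47% passing an unadjusted p of 0.05. The change of each member is therefore also given within library numbers 1 to 3 and within 4 to 6. This split of the numbers was chosen because earlier results of these data showed BAM15 libraries 4 to 6 apart. P-values between its sides describe the split and cannot test whether it exists. All 12 myotube markers examined, among them Myog, Ckm and Acta1, had counts in every library, and of 8 markers of undifferentiated myoblasts Pax3 had no row in the table. Between conditions 6 of the 12 myotube markers were called, with Myog (0.37) and Acta1 (0.46) higher and Ckm (−0.17), Mylpf (−0.23), Mymk (−0.27) and Mymx (−0.38) lower, and of the 7 myoblast markers tested Myf5 (1.69) was higher and Heyl (−3.07), Sdc4 (−1.15) and Pax7 (−0.93) lower, where 42.3% of all genes were called. The part of these differences in the results below was not tested.

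The TCA cycle runs in the mitochondrial matrix, where it oxidizes the acetyl group of acetyl-CoA to CO2 and hands the electrons to NADH and FADH2, which feed the respiratory chain. Its flux in muscle is set by the supply of acetyl-CoA, by the need for ATP and by the ratio of NADH to NAD+, with citrate synthase, isocitrate dehydrogenase and α-ketoglutarate dehydrogenase as the main points of control. Uncoupling speeds the reoxidation of NADH by the respiratory chain, and the transcripts below are the templates for enzymes of the cycle, some of which make NADH.

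The genes lie on 9 chromosomes of GRCm38. Cs (ENSMUSG00000005683) lies at chr10:128337734-128362479 on the plus strand, Idh3a (ENSMUSG00000032279) at chr9:54586334-54604661 on the plus strand, and Idh3b (ENSMUSG00000027406) at chr2:130279309-130284547 on the minus strand. Idh3g (ENSMUSG00000002010) lies at chrX:73778963-73786897 on the minus strand, Ogdh (ENSMUSG00000020456) at chr11:6291633-6356642 on the plus strand, and Dlst (ENSMUSG00000004789) at chr12:85110833-85134845 on the plus strand. Sucla2 (ENSMUSG00000022110) lies at chr14:73525319-73596142 on the plus strand, Fh1 (ENSMUSG00000026526) at chr1:175600374-175625635 on the minus strand, and Mdh2 (ENSMUSG00000019179) at chr5:135778480-135790398 on the plus strand. In the last 400 bases of the annotated transcript taken for each gene, none of the 9 shared a 50-base window with another gene. There, 5 bases of Idh3b overlapped Nop56 on the opposite strand. Where the reads fell along the transcripts was not examined.

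Promoter windows from 250 bases before to 50 bases after the start were taken from RefSeq (GRCm38.p6) and found for 8 of the 9 genes, all but Idh3a. Those of Ogdh, Cs and Fh1 are shown because Ogdh was the member that passed the test, and Cs and Fh1 the members with the widest range among BAM15 libraries. They span chr11:6291409-6291708 for Ogdh (plus strand), chr10:128337477-128337776 for Cs (plus strand) and chr1:175625586-175625885 for Fh1 (minus strand), and are written 5′ to 3′ along the gene with the letters CCAAT, or ATTGG where it lies on the other strand, in capitals.
Ogdh: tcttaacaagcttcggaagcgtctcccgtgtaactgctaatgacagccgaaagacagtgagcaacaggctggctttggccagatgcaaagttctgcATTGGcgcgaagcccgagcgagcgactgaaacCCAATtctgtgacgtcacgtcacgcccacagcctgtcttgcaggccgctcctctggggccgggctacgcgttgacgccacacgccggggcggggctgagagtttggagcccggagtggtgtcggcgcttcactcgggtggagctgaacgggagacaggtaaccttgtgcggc
Cs: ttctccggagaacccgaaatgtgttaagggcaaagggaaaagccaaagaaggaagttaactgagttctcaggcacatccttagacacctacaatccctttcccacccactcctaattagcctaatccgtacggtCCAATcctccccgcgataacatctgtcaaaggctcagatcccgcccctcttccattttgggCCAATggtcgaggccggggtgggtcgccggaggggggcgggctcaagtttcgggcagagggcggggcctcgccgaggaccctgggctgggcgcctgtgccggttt
Fh1: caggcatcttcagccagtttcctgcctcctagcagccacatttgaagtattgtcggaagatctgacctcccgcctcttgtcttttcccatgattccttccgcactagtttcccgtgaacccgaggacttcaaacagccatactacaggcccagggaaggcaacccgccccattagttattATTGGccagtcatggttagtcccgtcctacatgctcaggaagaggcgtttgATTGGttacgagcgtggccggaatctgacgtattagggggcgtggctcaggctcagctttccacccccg
The CCAAT letters, which the factor NF-Y can bind, were found on either strand in 4 of the 8 windows (Cs, Idh3b, Ogdh and Fh1), and in 37.4% of 32851 promoter windows of the same length. Their first base lay 154 and 122 bases before the start in Ogdh, 116 and 55 bases before it in Cs, and 70 and 19 bases before it in Fh1. GCGCA, any base and GCGC in a row, the letters searched for nuclear respiratory factor 1 (NRF-1), were found in Sucla2 alone, 17 bases before the start, and in 4.6% of all windows. TNAAGGTCA for estrogen-related receptors, TGATGCAA for the C/EBP-ATF response element and the E-box CACGTG were found in 0 of the 8 windows, and in 1.28%, 0.895% and 7.15% of all windows. These searches read both strands, no 2 of the 5 motifs overlapped in a printed window, and a match is a description of letters only.

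Of the 9 transcripts, 1 fell with BAM15, 0 rose and 8 did not pass the test. For comparison, 20.3% of all tested genes were called lower and 22.0% higher, 42.3% in all. At an adjusted p below 0.05 the members called were Ogdh and Dlst, against 54.1% of genes. At an unadjusted p below 0.05 edgeR gave 2 lower members and 0 higher ones, and DESeq2 and limma-voom also called 0 members higher. The median change of the 9 was −0.09 on the log2 scale, with 4 changes above 0 and 5 below. It was −0.19 without BAM15 replicate 5 and −0.03 without BAM15 replicate 3. None passed the 3 thresholds of the study together (adjusted p below 0.01, a mean normalized count over the 12 libraries, or base mean, above 50, and more than a 2-fold change), which 7.28% of genes passed. In 1 member, Ogdh, the conditions did not overlap, against 34.2% of tested genes. Summed over the 9 transcripts, normalized counts ran from 18465 to 21382 in BAM15 libraries and from 19940 to 21064 in vehicle libraries. Mdh2 weighed most in this sum, with means of 7316 with BAM15 and 8088 with vehicle, so the sum says little of the lower transcripts. These are bulk libraries, in which fewer cells of a type and less RNA per cell cannot be told apart.

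**Figure D1:**
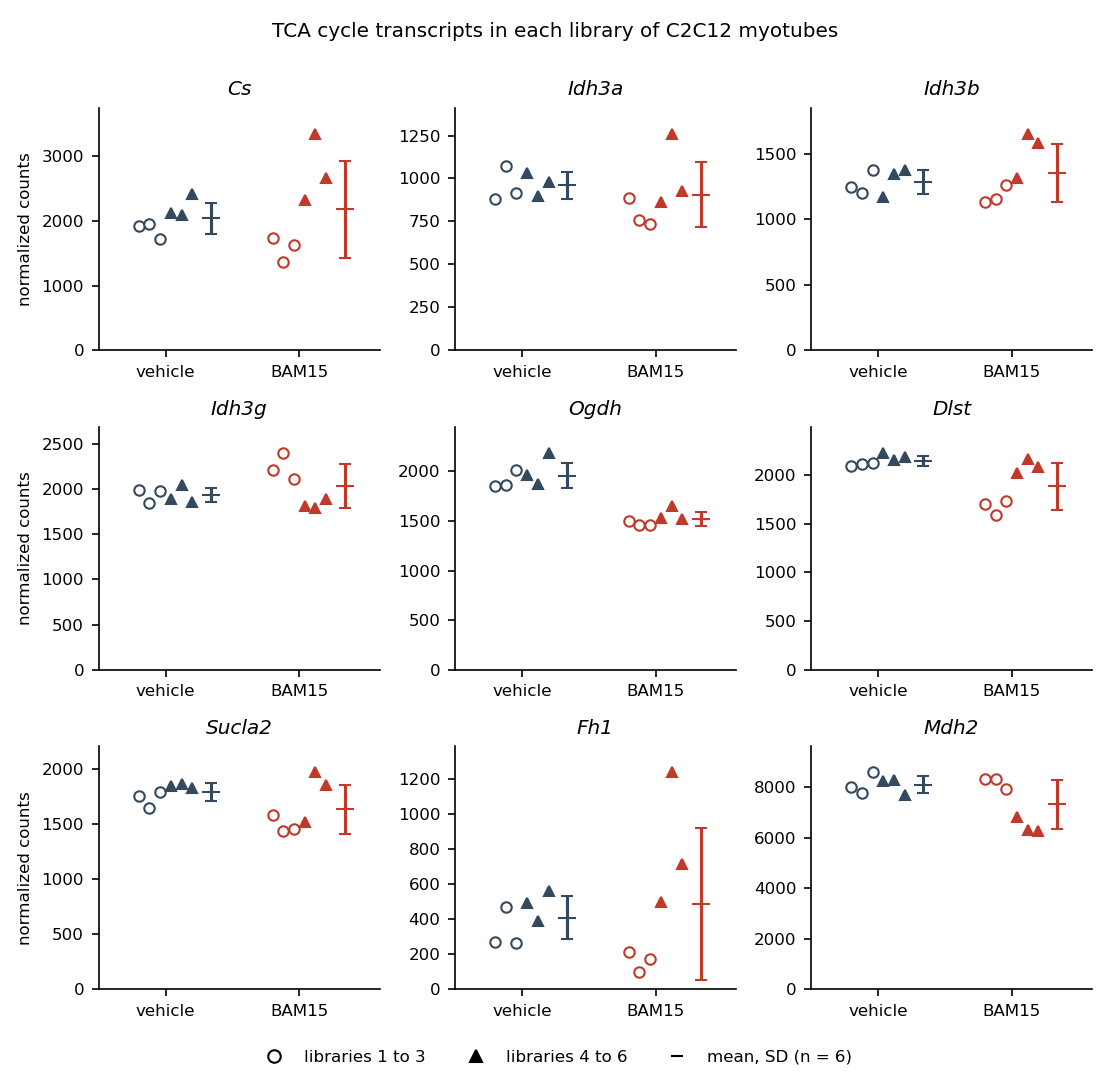
Normalized counts (vertical axes from 0, each with its own scale) of the 9 transcripts in 6 vehicle (blue) and 6 BAM15 (red) libraries of C2C12 myotubes. Open circles are libraries 1 to 3, triangles are libraries 4 to 6, and bars give the mean and SD over 6. Ogdh is the panel in which all BAM15 points lie below all vehicle points, and in Fh1 the BAM15 points run from 96.1 to 1239.

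The α-ketoglutarate dehydrogenase complex turns α-ketoglutarate into succinyl-CoA, and Ogdh encodes its first enzyme (E1), which binds thiamine pyrophosphate and decarboxylates the substrate. Ogdh counts were 1503, 1462, 1464, 1535, 1651 and 1519 in BAM15 libraries 1 to 6, and 1855, 1860, 2013, 1965, 1871 and 2186 in vehicle libraries 1 to 6. Every BAM15 library lay below every vehicle library. The mean was 1522 ± 69.7 (SD, n = 6) with BAM15 and 1958 ± 128 (SD, n = 6) with vehicle, a change of −0.36 (SE 0.05, 95% interval −0.48 to −0.25) or −22.3%, with an adjusted p of 5.04e-05 by edgeR. Ogdh fell by a similar amount within numbers 1 to 3 (−0.38, adjusted p = 2.96e-05) and within 4 to 6 (−0.37, adjusted p = 0.00315). The difference between those changes was 0.02 (SE 0.10) and had an adjusted p of 0.941. With any 1 library left out the change stayed between −0.39 and −0.33, and under other scalings between −0.42 and −0.36.

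Dlst encodes the E2 core of the same complex, the dihydrolipoyl succinyltransferase that moves the succinyl group onto coenzyme A through its lipoyl arm. In BAM15 libraries the lowest, median and highest counts of Dlst were 1590, 1877 and 2168, and in vehicle libraries they were 2091, 2139 and 2226. The lower end of the BAM15 range was held by libraries 1 to 3, which counted 1698, 1590 and 1729, and libraries 4 to 6 counted 2025, 2168 and 2087. Over all libraries the mean was 1883 ± 239 against 2148 ± 50.5 (SD, n = 6 each), a change of −0.19 (SE 0.07, 95% interval −0.35 to −0.03) with an adjusted p of 0.0412 by edgeR, which did not pass. Within numbers 1 to 3 Dlst fell (−0.34, adjusted p = 6.91e-05), and within 4 to 6 the change was −0.07 (adjusted p = 0.435). Without BAM15 replicate 5 the change over the remaining libraries was −0.23 and passed, with an adjusted p of 0.00954, and with a block for numbers 1 to 3 against 4 to 6 it was −0.20 and passed, with an adjusted p of 0.00492.

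Citrate synthase, encoded by Cs, joins acetyl-CoA to oxaloacetate and opens the cycle, and its activity is a common measure of mitochondrial content in muscle. BAM15 libraries 1 to 6 counted 1740, 1359, 1622, 2328, 3347 and 2666 for Cs, and vehicle libraries counted 1914, 1957, 1716, 2127, 2089 and 2421. The BAM15 range enclosed the vehicle range. The mean was 2177 ± 748 against 2037 ± 238 (SD, n = 6 each), a change of 0.10 (SE 0.19, 95% interval −0.32 to 0.51, adjusted p = 0.699). Its sign differed between the library numbers, with −0.25 within 1 to 3 (adjusted p = 0.0161) and 0.32 within 4 to 6 (adjusted p = 0.0536), neither past the test. It also turned to −0.07 when BAM15 replicate 5, the library with the highest count, was left out.

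NAD-dependent isocitrate dehydrogenase (IDH3) makes the first NADH of the cycle, and its catalytic α subunit comes from Idh3a. Idh3a ran from 738 through a median of 874 to 1261 in BAM15 libraries, and from 878 through 948 to 1072 in vehicle libraries. The highest BAM15 value belonged to replicate 5, and the next highest was 930. The change was −0.09 (SE 0.11, 95% interval −0.33 to 0.15, adjusted p = 0.54), with −0.27 within numbers 1 to 3 (adjusted p = 0.0137) and 0.06 within 4 to 6 (adjusted p = 0.721).

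The β and γ subunits, from Idh3b and Idh3g, pair with α and set the response of the enzyme to its allosteric effectors. Idh3b ran from 1132 through 1289 to 1654 with BAM15 and from 1169 through 1297 to 1376 with vehicle, and its change was 0.07 (SE 0.09, 95% interval −0.13 to 0.27, adjusted p = 0.557). Idh3g ran from 1783 through 2001 to 2396 with BAM15 and from 1843 through 1931 to 2037 with vehicle, a change of 0.07 (SE 0.07, 95% interval −0.08 to 0.23, adjusted p = 0.413). With a library left out in turn, the change of Idh3b ran from 0.0039 (without BAM15 replicate 5) to 0.12 and that of Idh3g from 0.023 (without BAM15 replicate 2) to 0.11. The overall changes of these partners were alike in size, but their orders across BAM15 libraries were opposite, since the 3 highest Idh3b values and the 3 lowest Idh3g values were those of libraries 4 to 6. Within numbers 1 to 3 Idh3g rose (0.21, adjusted p = 0.00957), whereas Idh3b had −0.11 (adjusted p = 0.181). Within 4 to 6 the values were −0.09 (adjusted p = 0.383) for Idh3g and 0.22 (adjusted p = 0.0995) for Idh3b.

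Sucla2 encodes the ADP-forming β subunit of succinyl-CoA synthetase, the substrate-level phosphorylation step of the cycle. It ran from 1442 through a median of 1551 to 1972 in BAM15 libraries and from 1651 through 1813 to 1869 in vehicle libraries. The change was −0.13 (SE 0.08, 95% interval −0.30 to 0.04, adjusted p = 0.181). Sucla2 fell within numbers 1 to 3 (−0.22, adjusted p = 0.00659) and had −0.06 within 4 to 6 (adjusted p = 0.61).

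Fumarase, encoded by Fh1, hydrates fumarate to malate. Its counts were 210, 96.1, 173, 498, 1239 and 716 in BAM15 libraries 1 to 6 and 267, 472, 266, 495, 391 and 563 in vehicle libraries 1 to 6. The highest BAM15 count was 12.9 times the lowest, and the highest vehicle count 2.12 times the lowest. BAM15 libraries 1 to 3 lay below all vehicle libraries, and libraries 5 and 6 above all of them. The mean was 489 ± 435 against 409 ± 123 (SD, n = 6 each), and the change of 0.26 (SE 0.53, 95% interval −0.89 to 1.40, adjusted p = 0.704) was smaller than its error. It was −1.05 within numbers 1 to 3 (adjusted p = 0.0724) and 0.75 within 4 to 6 (adjusted p = 0.155), and it turned to −0.28 without BAM15 replicate 5 and to −0.20 with limma-voom.

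Mitochondrial malate dehydrogenase, from Mdh2, regenerates oxaloacetate and closes the cycle. Mdh2 ran from 6249 through a median of 7356 to 8319 with BAM15 and from 7669 through 8114 to 8574 with vehicle. BAM15 libraries 4 to 6, at 6800, 6307 and 6249, lay below all vehicle libraries, and libraries 1 to 3, at 8311, 8319 and 7913, lay among them. The change was −0.14 (SE 0.08, 95% interval −0.31 to 0.02, adjusted p = 0.137). Mdh2 fell within numbers 4 to 6 (−0.33, adjusted p = 0.00289), and within 1 to 3 the value was 0.01 (adjusted p = 0.925). Scaled by library size only, the change over all libraries was −0.21 and passed, with an adjusted p of 0.00956.

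**Figure D2:**
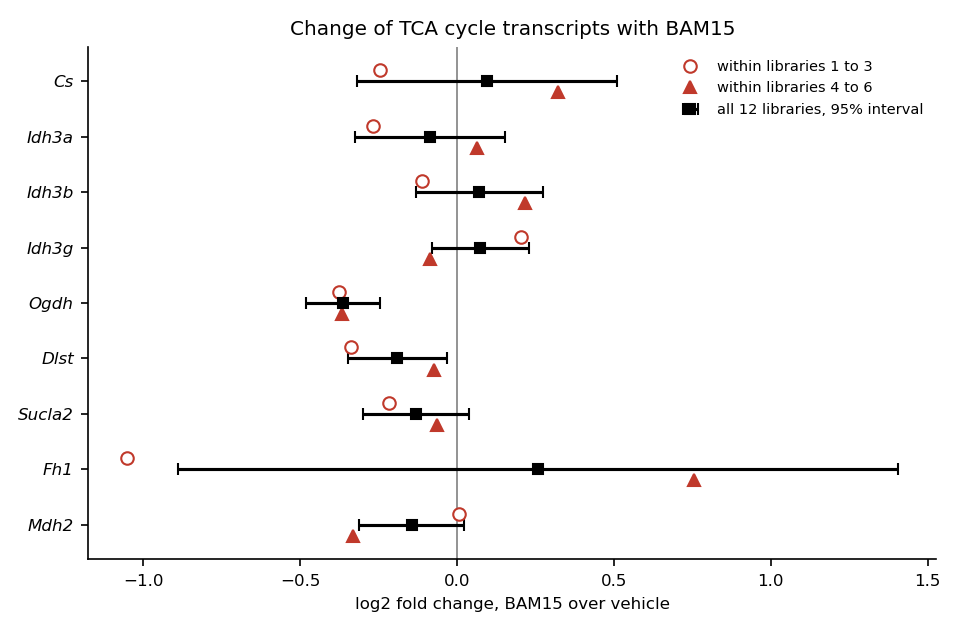
Log2 fold change of BAM15 over vehicle (horizontal axis) for the 9 transcripts (vertical axis). Squares with bars are the fit over 12 libraries with its 95% interval, open circles the fit within libraries 1 to 3 and triangles the fit within libraries 4 to 6. Ogdh has its 3 symbols together near −0.37, and the symbols of Fh1 spread from −1.05 to 0.75.

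Within library numbers 1 to 3, 4 of the 9 members passed the test (Ogdh, Dlst and Sucla2 lower, Idh3g higher), where 44.4% of genes were called. Within 4 to 6, 2 members passed (Ogdh and Mdh2, both lower), where 33.2% were called. The median of the 9 was −0.25 within 1 to 3 and −0.06 within 4 to 6. Ogdh was the member called lower in both. Tested as an interaction, the change within 4 to 6 differed from that within 1 to 3 in 0 members and in 0 genes of the whole table at an adjusted p of 0.01 by edgeR, and in 6 members at an unadjusted p below 0.05 (Cs, Idh3b, Idh3g, Dlst, Fh1 and Mdh2), where 26.0% of genes were below it.

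Between BAM15 libraries 4 to 6 and 1 to 3, 4 members were called higher and 2 lower, where 24.2% of genes were called in either direction. Fh1 was higher in libraries 4 to 6 by 2.35 on the log2 scale (SE 0.42, adjusted p = 0.00276), a 5.10-fold difference, and Cs by 0.82 (SE 0.12, adjusted p = 0.000314), a 1.77-fold difference. Idh3b was higher by 0.36 (SE 0.09, adjusted p = 0.00453) and Dlst by 0.32 (SE 0.06, adjusted p = 0.000674). Mdh2 was lower there, at −0.34 (SE 0.06, adjusted p = 0.000587), and so was Idh3g, at −0.29 (SE 0.07, adjusted p = 0.00273). Idh3a (0.36, adjusted p = 0.0352), Sucla2 (0.25, adjusted p = 0.0214) and Ogdh (0.09, adjusted p = 0.34) did not pass. So members of the same cycle, and even of IDH3, stood on both sides of the split.

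In the vehicle condition the same contrast called 0 members by edgeR, and 0 had an unadjusted p below 0.05, the interaction above being the test of the difference between conditions. The split was chosen from BAM15 libraries, so the conditions do not stand alike in this comparison. The vehicle values were 0.54 for Fh1, 0.25 for Cs (unadjusted p = 0.0597 by edgeR) and 0.10 or less in size for the other 7. Read without a test, BAM15 libraries 4 to 6 lay wholly above libraries 1 to 3 in 5 members (Cs, Idh3b, Ogdh, Dlst and Fh1), as in 22.2% of genes, and wholly below in 2 (Idh3g and Mdh2), as in 27.7%. Vehicle libraries 4 to 6 lay wholly above 1 to 3 in 3 members (Cs, Dlst and Sucla2) and wholly below in 0, and 14.2% of genes did not overlap in either direction.

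The spread between replicates was wider with BAM15 than with vehicle in 8 of the 9 members. The coefficient of variation over the 6 BAM15 libraries was 89.1% for Fh1, 34.4% for Cs and 20.9% for Idh3a, against 30.2%, 11.7% and 8.16% over the vehicle libraries. For Idh3b, Sucla2, Mdh2, Dlst and Idh3g it ran from 12.1% to 16.4% with BAM15 and from 2.35% to 7.15% with vehicle. Ogdh was the member with less spread under BAM15, at 4.58% against 6.56%. Over the 10470 genes with a base mean above 50 the median was 12.9% with BAM15 and 8.45% with vehicle.

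Other measures moved with the library numbers. Summed over the 12 myotube markers, normalized counts were 499783 to 541576 in BAM15 libraries 1 to 3 and 419223 to 453426 in BAM15 libraries 4 to 6, and in the vehicle they were 461324 to 495588 and 455808 to 472312. Acta1 and Mylpf weighed most in this sum, with means of 175768 and 96701 over the 6 BAM15 libraries. Of the 12 markers, 7 were called lower in BAM15 libraries 4 to 6 than in 1 to 3, where 24.2% of all genes were called in either direction, 0 were called higher by edgeR, and none was at 0 in any library. Over the 7 myoblast markers that could be tested the sums were 11646 to 12356 in BAM15 libraries 1 to 3 and 11508 to 12349 in 4 to 6. Most of this sum was Itga7, with a mean of 9914 over BAM15 libraries, so it says little of the other markers. Myf5, a myogenic factor of myoblasts, was the 1 marker called higher in 4 to 6 (1.42 on the log2 scale). The G and C content of the last 400 bases of the transcript moved with the split as well. When 10460 genes were ordered by this content and cut into 4 equal bins, the median log2 difference between BAM15 libraries 4 to 6 and 1 to 3 was 0.0151 in the bin with the lowest content and −0.189 in the bin with the highest, which began at 50.2%. Across these genes the Spearman correlation of this content with the difference was −0.223. Among the 9 members the content was 28.8% in Sucla2, 41.5% in Fh1, 43.8% in Cs, 46.2% in Idh3b and 46.5% in Mdh2. It was 47.5% in Idh3a, 47.8% in Dlst, 48.2% in Ogdh and 49% in Idh3g. The part of these measures in the split was not tested.

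**Figure D3:**
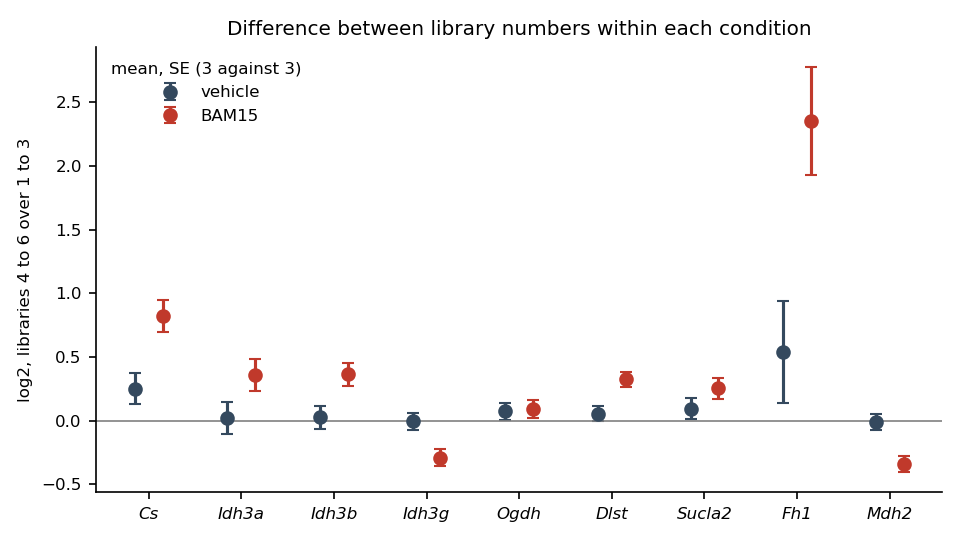
Log2 difference between libraries 4 to 6 and libraries 1 to 3 (vertical axis) for each of the 9 transcripts (horizontal axis), in vehicle (blue) and in BAM15 (red), with bars of 1 SE from the edgeR fit. The BAM15 points of Fh1 and Cs stand at 2.35 and 0.82, those of Idh3g and Mdh2 lie below 0, and the vehicle points of 7 members lie within 0.10 of 0.

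Some enzymes of the cycle are built from different partner subunits, and some have alternative subunits or isozymes. For such pairs, 8 ratios between transcripts were compared between conditions with a two-sided exact permutation test over the 12 libraries. In this test no p can fall below 0.00216. After adjustment over the 8 ratios 0 passed at 0.05, and 2 had an unadjusted p below it by this exact test. The log2 ratio of Ogdh to Dlst, E1 to E2, was −0.30 ± 0.14 with BAM15 and −0.14 ± 0.08 with vehicle (SD, n = 6 each), a difference of −0.16 with an exact p of 0.0455 and an adjusted p of 0.182, and the ratio was under the vehicle mean in 5 of 6 BAM15 libraries. Sucla2 competes with Suclg2, the GDP-forming β subunit, for the shared α subunit Suclg1. The ratio of Sucla2 to Suclg2 was 4.06 ± 0.49 with BAM15 and 4.93 ± 0.47 with vehicle, a difference of −0.87 with an exact p of 0.0173 and an adjusted p of 0.139, and the ratio was under the vehicle mean in all 6 BAM15 libraries. Without BAM15 replicate 3 this difference was −1.03 and passed, with an adjusted exact p of 0.0346. Suclg2 was a low transcript, with a mean of 105 ± 47.1 counts against 60.6 ± 18.6 (SD, n = 6 each).

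The other 6 ratios did not pass. Sucla2 to Suclg1 was −0.67 ± 0.17 with BAM15 and −0.67 ± 0.11 with vehicle (exact p = 0.983). Within IDH3, the ratio of Idh3a to Idh3b was −0.58 ± 0.18 against −0.42 ± 0.20 (exact p = 0.16), that of Idh3a to Idh3g was −1.18 ± 0.41 against −1.01 ± 0.17 (exact p = 0.364), and that of Idh3b to Idh3g was −0.60 ± 0.39 against −0.59 ± 0.10 (exact p = 0.957). The last of these was −0.92 in BAM15 libraries 1 to 3 and −0.27 in 4 to 6, with −0.60 and −0.57 in the vehicle, so that its BAM15 mean joined both sides of the split. Idh3a to Idh2, the NADP-dependent mitochondrial isozyme, was −0.89 ± 0.38 against −1.09 ± 0.15 (exact p = 0.271), and Mdh2 to Mdh1, the cytosolic isozyme, was 1.55 ± 0.34 against 1.41 ± 0.07 (exact p = 0.327).

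Of 11 other subunits of the cycle, 10 could be tested, and 1 of these was lower, 0 higher and 9 not called, where 20.3% of all genes were lower and 22.0% higher. The count was 3 with the authors' size factors and with library size only, and 0 without BAM15 replicate 4 or vehicle replicate 3 or 5. DESeq2 and limma-voom also called 0 of them higher, and edgeR gave 1 higher at an unadjusted p below 0.05. The median change was −0.05. Idh2 ran from 1363 through a median of 1671 to 1945 with BAM15 and from 1924 through 2049 to 2155 with vehicle, and fell by 0.30 on the log2 scale (SE 0.08, adjusted p = 0.00432). The call on Idh2 was lost without BAM15 replicate 4 (adjusted p = 0.0124), without vehicle replicate 3 or 5 (0.0106 each) and within numbers 1 to 3 (−0.16, adjusted p = 0.0321). Suclg1 had −0.14 (adjusted p = 0.026) and passed without vehicle replicate 4 (adjusted p = 0.00615), with the authors' size factors (0.00549) and with library size only (0.00565), and Suclg2 had 0.80 (adjusted p = 0.0306) and passed without BAM15 replicate 3 (adjusted p = 0.00683). Sdhc, a membrane anchor of succinate dehydrogenase, had −0.27 over all libraries (adjusted p = 0.427) and was higher in BAM15 libraries 4 to 6 than in 1 to 3 by 1.18 (adjusted p = 0.000694).

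Pyruvate enters the cycle through the mitochondrial pyruvate carrier and pyruvate dehydrogenase, which kinases switch off and phosphatases switch on. Of 13 genes of this entry 3 were lower, 0 higher and 10 not called, with a median of −0.09. A share of 20.3% of all genes was lower, so this count is near that of the whole table. DESeq2 and limma-voom called 0 higher as well, and edgeR gave 1 higher at an unadjusted p below 0.05. All 3 called genes were regulators. The other regulators of the list, named after their values were seen, were not called over all libraries. Of these, the kinases Pdk2 and Pdk4 and the phosphatase gene Pdp1 had changes above 0, and the phosphatase gene Pdpr had one below 0. Pdk1, a kinase, counted 382 to 557 in vehicle libraries and 168 to 300 in BAM15 libraries without overlap, and fell by 1.08 (SE 0.14, adjusted p = 9.15e-06). The kinase Pdk3 fell by 0.48 (SE 0.08, adjusted p = 0.000124) and the phosphatase Pdp2 by 0.60 (SE 0.10, adjusted p = 0.000123). These 3 calls held within both sets of library numbers, with Pdk1 at −1.33 within 1 to 3 and −0.88 within 4 to 6.

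Enzymes and carriers that refill or drain the cycle held the largest changes of these metabolic lists. Of 15, 3 were higher, 3 lower and 9 not called, with a median of 0.06, and the number called is near the 42.3% of the whole table. Pck2, the mitochondrial enzyme that draws oxaloacetate off as phosphoenolpyruvate, counted 2599 to 3185 with BAM15 and 271 to 377 with vehicle, and rose by 3.10 (SE 0.09, adjusted p = 6.35e-13). In Pck2, 21.4% of the 50-base windows near the 3′ end are shared with other genes, so reads there could be divided. Gpt2, which exchanges alanine and α-ketoglutarate for pyruvate and glutamate, counted 2339 to 2580 against 667 to 775 and rose by 1.77 (SE 0.06, adjusted p = 1.59e-12). Slc25a10, the dicarboxylate carrier for malate and succinate, fell by 1.30 (SE 0.10, adjusted p = 5.71e-08), and Acly, which splits exported citrate in the cytosol, fell by 0.81 (SE 0.05, adjusted p = 9.55e-09). The remaining calls, named after their values were seen, were the citrate carrier Slc25a1 (−0.69, adjusted p = 4.65e-06) and pyruvate carboxylase Pcx (0.52, adjusted p = 0.00235), which had 0.14 within numbers 4 to 6 (adjusted p = 0.437).

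Among 5 cytosolic counterparts of cycle enzymes 1 was higher, 2 lower and 2 not called, with a median of −0.29. Over all tested genes 22.0% were called higher and 20.3% lower, 42.3% in all. Got1, the cytosolic aspartate aminotransferase of the malate-aspartate shuttle, rose by 1.11 (SE 0.08, adjusted p = 2.26e-08), from 1417 ± 82.0 to 3063 ± 409 counts (SD, n = 6 each). Idh1, the cytosolic NADP-dependent isocitrate dehydrogenase, fell by 1.16 (SE 0.24, adjusted p = 0.00138), with 385 to 1126 counts in BAM15 libraries and 1502 to 1879 in vehicle libraries. Its change was −1.70 within numbers 1 to 3 (adjusted p = 1.09e-10) and −0.82 within 4 to 6 (adjusted p = 2.63e-05). Mdh1 fell by 0.29 (SE 0.07, adjusted p = 0.00308) and had −0.21 within numbers 4 to 6 (adjusted p = 0.0934).

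α-Ketoglutarate and pyruvate dehydrogenases need lipoic acid on their E2 subunits, and succinate dehydrogenase needs assembly factors. Of 7 such genes 2 were higher, 0 lower and 5 not called by edgeR, with 1 lower at an unadjusted p below 0.05, and 0 were lower by DESeq2 or limma-voom. The median was 0.04. For comparison, edgeR called 22.0% of all tested genes higher and 20.3% lower, 42.3% in all. The lipoyltransferase Lipt1 rose by 0.30 (SE 0.08, adjusted p = 0.0032) and the assembly factor Sdhaf1 by 0.39 (SE 0.08, adjusted p = 0.000716). Within numbers 4 to 6 neither passed, with 0.21 (adjusted p = 0.125) and 0.32 (adjusted p = 0.0425), and Lipt1 also missed the threshold with the authors' size factors (adjusted p = 0.0116). A total of 66 bases of Sdhaf1 overlap a gene on the opposite strand.

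**Figure D4:**
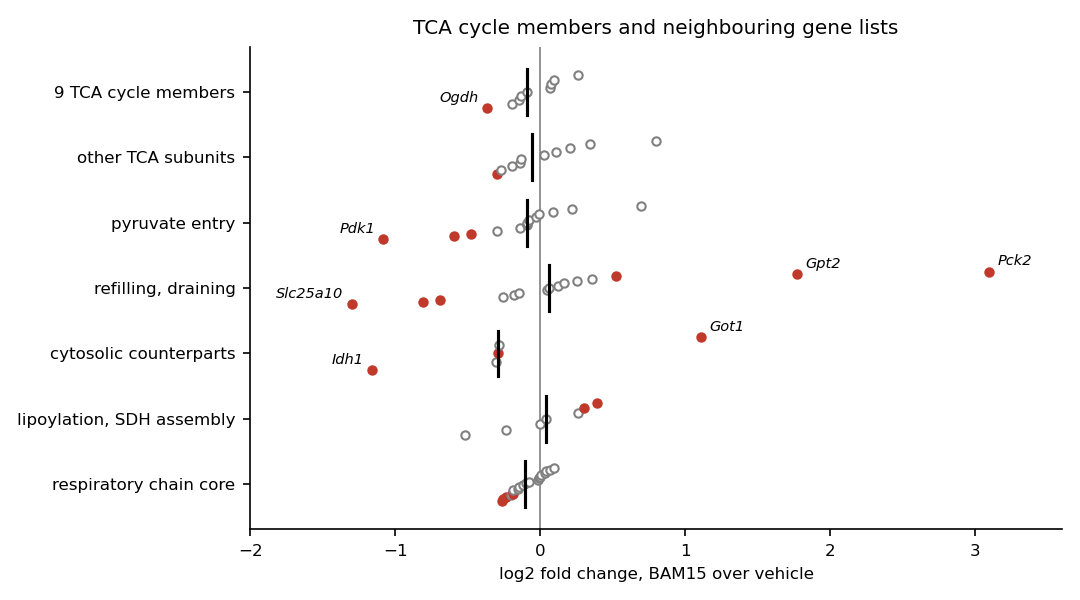
Log2 fold change of BAM15 over vehicle (horizontal axis) for each tested gene of the 9 members and of 6 neighbouring lists (vertical axis). Filled red points passed an adjusted p of 0.01, open points did not, and black bars are medians. The 9 members lie between −0.36 and 0.26, while Pck2 at 3.10, Gpt2 at 1.77 and Got1 at 1.11 stand to the right and Slc25a10, Idh1 and Pdk1 to the left.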

How the data were processed

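RNA of C2C12 myotubes given 20 μM BAM15 or vehicle for 16 h was sequenced with the QuantSeq 3′ kit, and all 6 libraries of each condition entered the analysis. Columns of 11 samples outside the series were left out. The authors aligned and counted the reads with BlueBee software, and the deposited counts are raw reads for each Ensembl gene. The submitters' processing notes name GRCm38, mm10 and DESeq2 1.22.2, and the aligner and the counting strand are not given in the sources used here. The authors also deposited a normalized signal, in which the counts of a library are divided by its size factor (0.836 to 1.07), and it was used only to attach symbols and for 1 alternative.

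The counts were fitted in R 4.3.3 with edgeR 4.0.16 (quasi-likelihood test, robust, TMM factors of 0.932 to 1.04). The filter filterByExpr removed 2383 of 15113 genes, and p-values were adjusted over the 12730 others by the Benjamini-Hochberg method. The adjusted p threshold of 0.01 is that of the study. The SE is the size of the log2 fold change divided by the square root of F. Positions came from GENCODE M21, which held 15080 of the identifiers. A list of gene names by Ensembl identifier supplied 2260 of 2293 missing symbols. Totals were 13983725 to 18866728 counts. No library was a copy of another, as the chi-square of a pair, divided by the number of genes, was 4.75 to 24 in 15 vehicle pairs and 6.19 to 79.1 in 15 BAM15 pairs.

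The members, the gene lists and the split of library numbers were chosen with earlier results of these data known. Genes named are the 9 members, in each other list the called genes with the largest change (at most 4), the partners in the 8 ratios, and the 5 genes nearest in pattern to the mean of the members. Values of 1 gene of the lists are not reported here. Alternatives were DESeq2 1.42.0, limma-voom (limma 3.58.1), 3 other scalings, 2 other filters, blocks for the library number and for numbers 1 to 3 against 4 to 6, either set of numbers alone, each library left out, and other thresholds. The tests were checked on simulated data.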

Additional observations from a re-analysis of the deposited data

Results flagged for a closer look

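In 30 genes, the 9 members and the other genes named from the lists and ratios, the lowest and highest library of each condition were examined for a gap to the nearest library that is wide for the whole range (Dixon's criterion, 60 groups of 6). A total of 2 stood apart, where chance gives about 1 in 20 groups. The Idh3a count of BAM15 replicate 5 was 1261, and the other BAM15 libraries ran from 738 to 930. Without that library the change of Idh3a was −0.20 in place of −0.09. The Suclg1 count of vehicle replicate 4 was 2557, below the other vehicle libraries, and without it Suclg1 passed the test (−0.17, adjusted p = 0.00615 by edgeR).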

How the results depend on the processing

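Ogdh kept its direction and an adjusted p below 0.01 with every other tool, scaling, filter, block and set of libraries run. The number of members called, 1 in the report, was 2 with scaling by library size only (Ogdh and Mdh2), 2 with a block for numbers 1 to 3 against 4 to 6 (Ogdh and Dlst), 4 within numbers 1 to 3, 2 within 4 to 6, 2 at an adjusted p below 0.05, 0 at the 3 thresholds of the study, and 1 to 2 with a library left out (2 without BAM15 replicate 5, Ogdh and Dlst). The median of the members moved from −0.09 to −0.25 within 1 to 3 and to −0.06 within 4 to 6. The calls in the 5 neighbouring lists, of 10, 13, 15, 5 and 7 tested genes, went from 15 to 25 and to 13. Over all tested genes the share called was 42.3% in the main fit, 44.4% within 1 to 3 and 33.2% within 4 to 6.

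Sign changes concerned members and ratios that did not pass in the main fit over all libraries. Of these, Idh3g passed within numbers 1 to 3, and Mdh2 passed within 4 to 6 and with scaling by library size only. Within numbers 1 to 3, Cs had −0.25, Idh3b −0.11, Fh1 −1.05, Mdh2 0.0070 and the ratio of Idh3a to Idh2 −0.11. Within 4 to 6, Idh3a had 0.063, Idh3g −0.087, and the ratios 0.13 (Idh3a to Idh3g), 0.30 (Idh3b to Idh3g), 0.048 (Sucla2 to Suclg1) and −0.11 (Mdh2 to Mdh1). Fh1 had −0.20 with limma-voom and −0.067 with the block for numbers 1 to 3 against 4 to 6. With each library left out in turn, Cs ran from −0.069 to 0.20, Fh1 from −0.28 to 0.47, and the ratio differences from −0.11 to 0.084 (Idh3b to Idh3g) and from −0.054 to 0.039 (Sucla2 to Suclg1). The difference for Sucla2 to Suclg2 kept its sign, from −1.03 to −0.75. The fits within a set of numbers hold fewer libraries, and the cause of the sign changes was not tested.

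With the library number as a replicate block 5292 genes were called against 5379 without it, 1 member (Ogdh) in both, and Fh1 had −0.13. The numbers were not taken to pair the samples, since the labels do not say what they mark and the deviations of same-numbered libraries from their group means correlated at −0.0756 to 0.311, not above 0.1 in all 6. In these deviations BAM15 libraries 1 to 3 were nearest to vehicle library 3 and libraries 4 to 6 to vehicle library 6.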

Other observations

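The respiratory chain takes up the NADH and FADH2 that the TCA cycle makes. Of 20 listed subunits of complexes I and III to V, 5 were lower with BAM15, 0 higher and 15 not called, with a median change of −0.11, where 20.3% of all genes were lower. DESeq2 and limma-voom also called 0 higher, and edgeR gave 0 higher at an unadjusted p below 0.05. Cox6b1, a subunit of cytochrome c oxidase, fell by 0.25 (SE 0.05, adjusted p = 0.000512), from 6406 ± 205 to 5376 ± 291 counts (SD, n = 6 each). Ndufs1, the large iron-sulfur subunit of complex I, fell by 0.19 (SE 0.05, adjusted p = 0.00288). Both missed the threshold within library numbers 4 to 6, at −0.23 (adjusted p = 0.0253) and −0.16 (adjusted p = 0.13). Atp5o of ATP synthase (−0.26, adjusted p = 0.00746) and Uqcrc1 of complex III (−0.23, adjusted p = 0.00824) also fell, and so did Cyc1 (−0.19, adjusted p = 0.00927), which was named after its values were seen. Cyc1 missed the threshold within numbers 1 to 3 (−0.17, adjusted p = 0.0161) and within 4 to 6 (−0.21, adjusted p = 0.0684), and its adjusted p ran from 0.00455 to 0.021 with a library left out. The call on Atp5o was lost when any 1 of BAM15 replicates 3 to 6 or vehicle replicates 1, 3, 4 and 5 was left out, with an adjusted p of up to 0.0203, and within numbers 1 to 3 (−0.16, adjusted p = 0.0314). That on Uqcrc1 was lost without any 1 of BAM15 replicates 4 to 6 or vehicle replicates 1 and 3 to 6, with an adjusted p of up to 0.0186, and within numbers 1 to 3 (−0.12, adjusted p = 0.0728). The number of calls in this list was 2 to 5 with a library left out. In Atp5o 45.3% of the 50-base windows near the 3′ end are shared with other annotated genes.

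The 5 genes nearest in pattern to the mean log2 level of the 9 members over the 12 libraries were Ctnnd1, which encodes a catenin of cell junctions, with a Pearson r of 0.988, Llgl1, a cell polarity gene (0.986), Sdhc (0.985), Tspan7, a tetraspanin (0.983), and Txn1, a thioredoxin (0.982). Each had an adjusted p above 0.4 between conditions by edgeR, from 0.427 for Sdhc to 0.871 for Llgl1. The members were averaged without scaling, so the mean mainly follows those with the widest range among BAM15 libraries. These were Fh1 (highest 12.9 times the lowest) and Cs (2.46 times), while Idh3g and Mdh2 ran the other way across the split. The 12 points share the split among BAM15 libraries, so the r values describe these libraries and are not a test.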
